A study of Mus musculus with 22 samples.

Results

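Gnb2 encodes a beta subunit of heterotrimeric G proteins, and it was examined together with 5 relatives: the beta subunit Gnb4, the gamma subunits Gng5, Gng10 and Gng12, and the inhibitory alpha subunit Gnai2. Gnb2 was chosen by its levels in the rods of the single-cell libraries, which at P19 stood far above WT in the knockout, and the other 5 genes were chosen as non-visual relatives for comparison. These 6 genes were followed among 53801 identifiers of the bulk tables, and all 6 passed the filter on low counts in every bulk comparison and were present among the 19324 genes of the single-cell matrix. The rod values chose Gnb2 and are given here as a description with no test. The rule that chose Gnb2 used no bulk values, and the bulk libraries are tested. The 6 genes were, however, chosen with earlier results of these data known.

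The mice lacked AdipoR1 (AdipoR1-/-, from the Adipor1tm1Dgen line, called KO) or were WT, all on C57BL/6J, housed in a 12 h cycle of light and dark and given no treatment. The deletion was carried by every cell of the animal, so a difference in 1 cell type cannot be told apart from an effect of the loss elsewhere. Bulk RNA came from the retina and from RPE cells shaken loose from the eyecups at P30, with 4 mice of each genotype and tissue. Single cells came from dissociated retina at P19, P25 and P30, with 4 retinae pooled into 1 library for each genotype and age. The P30 pair of single-cell libraries was sequenced in a separate batch from the P19 and P25 libraries, so P30 against the earlier ages cannot be told apart from that batch.

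A heterotrimeric G protein carries a signal from a receptor to an effector. Its alpha subunit binds and hydrolyses GTP, and its beta and gamma subunits form a tight pair that anchors the alpha subunit at the receptor and signals in its own right once released. Rods use a dedicated set, the transducin subunits Gnat1, Gnb1 and Gngt1, to couple light reception to the phosphodiesterase Pde6, and cones use Gnat2, Gnb3 and Gngt2. The subunits followed here serve a broad range of receptors in many tissues, and Gnai2 is the inhibitory alpha subunit of immune, glial and endothelial cells.

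On GRCm38 (mm10), Gnb2 (ENSMUSG00000029713) lies on the minus strand at chr5:137528127-137533510. Gnb4 (ENSMUSG00000027669) lies on the minus strand at chr3:32580332-32616585. The gamma subunit genes lie on plus strands, Gng5 (ENSMUSG00000068523) at chr3:146499807-146505572, Gng10 (ENSMUSG00000038607) at chr4:59035088-59041903 and Gng12 (ENSMUSG00000036402) at chr6:66896397-67021350. Gnai2 (ENSMUSG00000032562) lies on the minus strand at chr9:107614125-107635367. All 6 are protein-coding genes. Gnb2 shares 104 exon bases on its own strand with Epo, the erythropoietin gene, which stood at 0.053 CPM in WT retina, and 30 with Mir6418. Gng10 shares 946 of its 1314 exon bases with Gm20503 on the same strand, which was listed at 0 counts, so the Gng10 values are uncertain. Gng12 shares 125 exon bases with 4930597O21Rik on the opposite strand.

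The promoter of Gnb2 is shown because its level differed most between the genotypes, and that of Gngt1, the rod gamma subunit, is shown as a visual counterpart. Each stretch runs 5′ to 3′ on the strand of its gene from 250 bases before to 50 bases after the RefSeq start. In the Gnb2 promoter (GRCm38.p6, chr5:137533257-137533556, minus strand), capitals mark the letters TGACG, the core of a cAMP response element, read here on the other strand, and a GC box, GGGCGG. In the Gngt1 promoter (GRCm38.p6, chr6:3993758-3994057, plus strand), capitals mark TAATCC, the core of the site of the photoreceptor factor CRX, read here on the other strand.
Gnb2: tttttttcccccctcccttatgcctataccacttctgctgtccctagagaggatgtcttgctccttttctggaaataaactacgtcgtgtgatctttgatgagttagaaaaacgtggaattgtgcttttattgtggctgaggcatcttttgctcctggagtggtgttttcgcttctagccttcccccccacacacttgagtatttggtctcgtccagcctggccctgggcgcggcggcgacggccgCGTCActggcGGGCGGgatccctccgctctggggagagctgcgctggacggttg
Gngt1: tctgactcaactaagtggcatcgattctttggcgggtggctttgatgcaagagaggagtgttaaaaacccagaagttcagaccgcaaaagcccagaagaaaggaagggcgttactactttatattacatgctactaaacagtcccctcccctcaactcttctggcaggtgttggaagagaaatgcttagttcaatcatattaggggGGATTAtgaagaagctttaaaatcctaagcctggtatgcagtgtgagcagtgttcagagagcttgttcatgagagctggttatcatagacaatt

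The GC content was 55% in the Gnb2 promoter and 43.7% in the Gngt1 promoter, against a median of 52.7% over 32851 mouse promoters in the same table. Searched on both strands, with no overlap among the 3 motifs in these windows, GGGCGG was found in 35.7% of all promoters of this length, TGACG in 20.8% and TAATCC in 7.06%. The Gnb2 window held 1 GC box and 1 TGACG and no TAATCC, and a match or its absence describes only these letters. Gng5 (80.7% GC), Gng10 (62.3%) and Gng12 (74.0% and 73.3% for its 2 starts) also matched the table. Gnb4 and Gnai2 had no entry in it.

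The bulk libraries held 20133143 to 38409496 counts. Adipor1, the targeted gene, fell from 600.4 ± 8.09 to 138.6 ± 2.46 CPM in retina (counts of the gene in 1000000 counts of the library, mean ± SD, n = 4) and from 409.1 ± 48.7 to 145.5 ± 5.80 CPM in RPE. The summed CPM of 12 rod markers lay between 57735 and 63135 in WT retina and between 30001 and 34143 in KO retina, where 11 of the 12 fell. Those of 14 microglia or macrophage markers lay at 75.0 to 80.5 in WT and 263.0 to 305.8 in KO, where all 14 rose. In the RPE libraries the rod markers summed to 1149 to 14783 CPM in WT and 746.1 to 5122 in KO, and WT RPE replicates 2 and 3 held the most. The RPE markers reached 34042 to 52831 CPM in the RPE libraries against 473.7 to 503.0 in WT retina. In bulk tissue, fewer cells of a type and less RNA per cell cannot be told apart. The single-cell libraries held 26764 cells with a median of 1349 to 4357 UMIs per library, 49 of 26715 distinct barcodes occurred in more than 1 library, and 783 to 1970 cells per library were rods.

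The 6 genes differed widely in their WT levels. Per kilobase of exon in WT retina, Gnai2 was the highest at 29.1 to 37.0 CPM per kb over the 4 libraries, followed by Gnb2 at 19.7 to 22.2. Gng5 at 1.90 to 2.26 and Gng12 at 1.60 to 2.28 CPM per kb overlapped, and Gng10 at 0.579 to 0.821 and Gnb4 at 0.542 to 0.580 CPM per kb overlapped at the edge. The transducin subunits stood far above them on the same scale, with means of 3759 CPM per kb for Gnat1, 987.7 for Gnb1 and 284.0 for Gngt1. In WT RPE the order began with Gnb2 at 72.8 to 86.0 CPM per kb, ahead of Gnai2 at 45.0 to 58.3. The ranges of these 2 genes did not overlap in either tissue, and their order was opposite.

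Between the WT tissues, 5 of the 6 genes were higher in RPE than in retina and Gnb4 did not differ by the test (edgeR's quasi-likelihood test, p-values adjusted over all genes). Over all genes, 41.4% passed as higher and 40.4% as lower in this comparison, so the tissue difference was a common one. Gng5 differed by 2.33 on the log2 scale (adjusted p = 2.1e-06), Gng12 by 2.19 (1.9e-05), Gnb2 by 1.93 ± 0.085 (SE, 5.4e-07), Gnai2 by 0.75 (3.2e-04) and Gng10 by 0.73 (0.0069). For Gnb4 the log2 difference was -0.03 (adjusted p = 0.85). All 6 transducin subunits were lower in RPE than in retina.

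**Figure D1:**
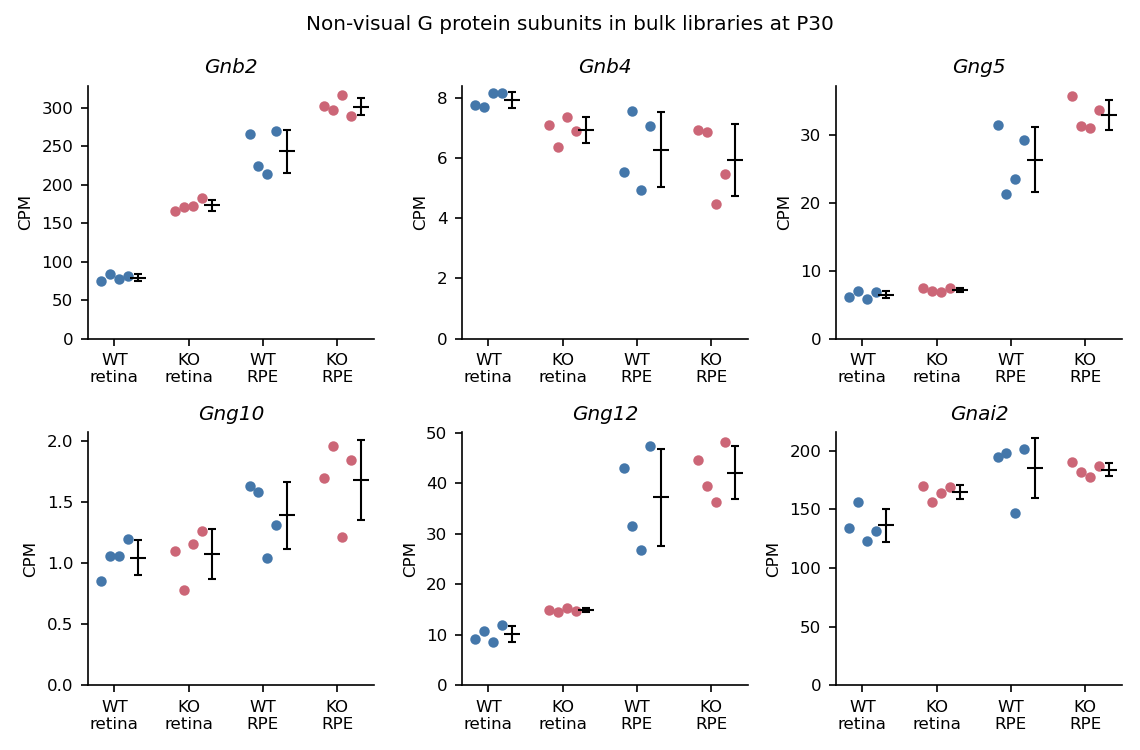
Level of each of the 6 genes in every bulk library at P30, in CPM on linear axes that start at 0, with WT in blue and KO in red (4 libraries a group) and the mean ± SD as black bars. The Gnb2 points of KO retina (165.4 to 182.1 CPM) lie above all WT retina points (74.7 to 84.3 CPM), while the Gnb4 points of the RPE groups mix.

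In the retina, Gnb2 more than doubled in the KO. The 4 WT retinas measured 74.7, 84.3, 76.8 and 80.9 CPM and the 4 KO retinas 165.4, 171.4, 172.7 and 182.1 CPM. Every KO retina stood above every WT retina, and no value came near the other group. The log2 fold change was 1.13 ± 0.045 (SE, 2.18-fold, adjusted p = 9.0e-10). In the retina 3 of the 6 genes rose and 0 fell, where 16.2% of the 19381 genes tested rose and 14.7% fell. The median log2 fold change of the 6 was 0.21, against 0.004 over all genes tested. Gnb2 alone also passed the fold threshold of 1.5, which 7.00% of genes did upwards and 3.04% downwards. Gnb4, the other beta subunit, measured 7.76, 7.69, 8.18 and 8.17 CPM in WT and 7.12, 6.38, 7.38 and 6.90 CPM in KO retina. Its 4 KO values lay below the 4 WT values, yet the difference did not pass the test (log2 fold change -0.19 ± 0.081, adjusted p = 0.085).

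Among the gamma subunits, which carry the lipid anchor of the beta-gamma pair, Gng12 alone passed. It measured 9.12, 10.7, 8.48 and 11.9 CPM in WT retina and 14.9, 14.5, 15.3 and 14.8 CPM in KO retina, and the groups did not overlap. The log2 fold change of Gng12 was 0.56 ± 0.096 (1.48-fold, adjusted p = 5.9e-04). Gng5 ranged from 5.88 to 6.98 CPM in WT and from 6.80 to 7.50 CPM in KO retina, and its groups overlapped (log2 fold change 0.15, adjusted p = 0.24). Gng10 was close to 1 CPM in every retina, at 0.85 to 1.20 CPM in WT and 0.78 to 1.26 CPM in KO (log2 fold change 0.03, adjusted p = 0.92).

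Gnai2 rose by a small amount. The WT retinas measured 134.6, 156.3, 123.5 and 131.2 CPM and the KO retinas 170.0, 156.7, 163.7 and 169.1 CPM. The highest WT retina lay just under the lowest KO retina, so the groups nearly met without overlapping. The log2 fold change of Gnai2 was 0.27 ± 0.061 (1.21-fold, adjusted p = 0.0039). Per kilobase, the order of the top 2 genes differed in KO retina from WT retina, with Gnb2 at 43.3 to 47.5 CPM per kb and Gnai2 at 37.2 to 40.1. The summed markers of Müller glia (4925 to 5334 CPM in WT, 6246 to 6621 in KO), endothelial cells (308.8 to 363.5 and 486.7 to 508.2) and microglia were also higher in KO retina, and those of rods were lower. The part of these shifts in the changes of Gnb2, Gng12 and Gnai2 was not tested.

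The transducin subunits, which share the retina with these genes, did not move as a block. Gnat1, the rod alpha subunit, fell by 0.90 on the log2 scale (adjusted p = 7.8e-07), its beta partner Gnb1 fell by 0.84 (1.0e-06) and the gamma subunit Gngt1 fell by 0.56 (6.4e-06). Gnb3, the cone beta subunit, which ON bipolar cells also use, rose from 348.5 ± 26.0 CPM in WT to 1441 ± 68.1 CPM (4.14-fold, log2 fold change 2.05 ± 0.065, adjusted p = 8.0e-11). The cone subunits Gnat2 (log2 fold change -0.17, adjusted p = 0.052) and Gngt2 (0.08, 0.32) did not pass. Gnb2 and Gnb3 thus rose where Gnb1 fell, but on a linear scale Gnb1 lost far more than they gained, from 4708 ± 250.5 to 2632 ± 161.1 CPM.

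**Figure D2:**
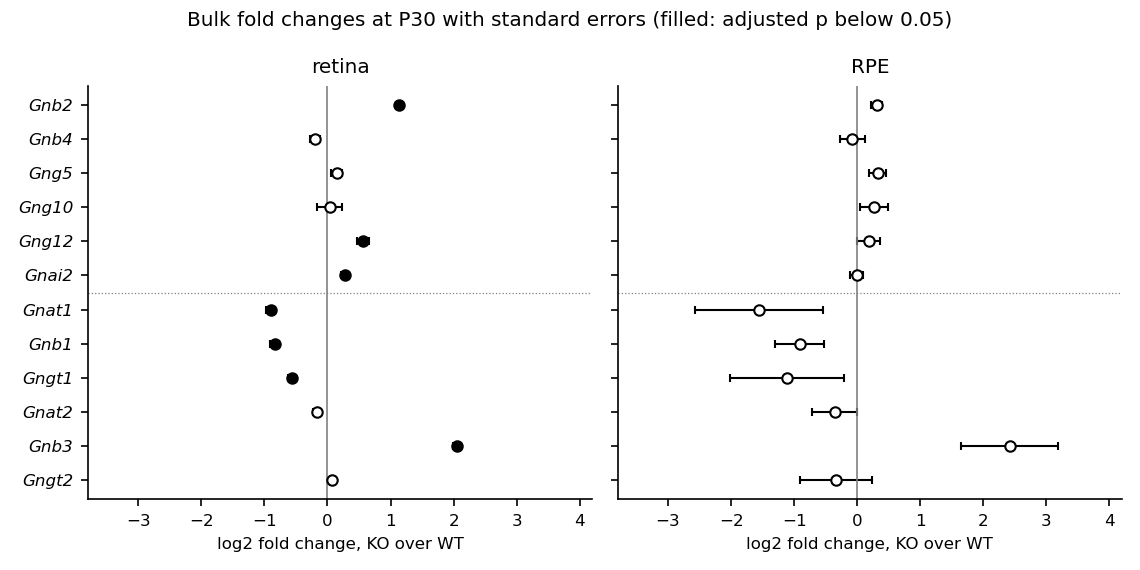
Log2 fold change of KO over WT at P30 in retina (left) and RPE (right) from edgeR's quasi-likelihood test for the 6 genes (above the dotted line) and the 6 transducin subunits (below it), with bars of 1 standard error and filled points where the adjusted p was under 0.05. In retina Gnb2 (1.13) and Gnb3 (2.05) lie to the right and Gnat1 (-0.90) to the left, while in RPE no point is filled and Gnb2 lies at 0.31.

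In the RPE, 0 of the 6 genes passed edgeR's quasi-likelihood test, where 2.84% of 18989 genes rose and 3.89% fell. At an unadjusted p below 0.05 there were 2, Gnb2 and Gng5, and limma-voom passed 0 and DESeq2 1. Gnb2 measured 265.2, 224.5, 213.7 and 269.4 CPM in WT RPE and 301.7, 296.5, 316.0 and 289.6 CPM in KO RPE. All 4 KO values lay above all 4 WT values, and the WT values were the more spread. The log2 fold change was 0.31 ± 0.089 (1.24-fold) with an unadjusted p of 0.0084 and an adjusted p of 0.088 by edgeR's quasi-likelihood test. The call depended on the method, since Gnb2 passed with DESeq2 (adjusted p = 0.0043), with all 16 libraries in 1 fit (0.0040) and with library totals alone (0.037). It stood at 0.19 (adjusted p = 0.11) without WT RPE replicates 2 and 3, the WT libraries with the lowest Gnb2 and the most rod RNA.

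The other 5 genes also missed the threshold in RPE. Gng5 measured 31.5, 21.3, 23.5 and 29.3 CPM in WT and 35.8, 31.5, 31.2 and 33.7 CPM in KO (log2 fold change 0.32, adjusted p = 0.21). Only its highest WT value reached into the KO range. Gng12 ranged from 26.8 to 47.5 CPM in WT libraries and from 36.3 to 48.1 in KO libraries (0.18, 0.61), Gng10 from 1.04 to 1.63 and from 1.21 to 1.96 CPM (0.27, 0.53) and Gnb4 from 4.94 to 7.58 and from 4.46 to 6.94 CPM (-0.08, 0.84). These groups overlapped. Gnai2 averaged 185.4 ± 26.0 CPM in WT RPE against 184.2 ± 5.70 in KO RPE, and the log2 fold change was -0.01 (adjusted p = 0.97).

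The difference between the tissues was itself tested over all 16 libraries. For Gnb2 the KO effect in RPE was lower than that in retina by 0.80 ± 0.094 on the log2 scale (interaction -0.80, adjusted p = 1.1e-04). It was the 1 of the 6 genes to pass, where 5.73% of 21068 genes passed as lower in RPE and 3.11% as higher. The interaction of Gng12 (-0.36, adjusted p = 0.35), Gnai2 (-0.26, 0.21), Gng5 (0.20, 0.45), Gng10 (0.25, 0.63) and Gnb4 (0.14, 0.74) did not pass. After leaving out WT RPE replicates 2 and 3, Gng12 (-0.60, 0.020) and Gnai2 (-0.32, 0.038) passed too. Gnai2 also passed without WT RPE replicate 3 alone (-0.34, 0.032), the library with its lowest RPE value. Even in KO retina, Gnb2 at 45.4 ± 1.73 CPM per kb remained below WT RPE at 79.2 ± 7.16 CPM per kb.

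In rods taken by cluster, Gnb2 RNA was scarce in WT and 10.2 to 12.3 times higher in KO cells, and with rods taken cell by cell from marker UMIs the log2 ratios were lower, at 1.30, 0.82 and 2.47 for P19, P25 and P30. UMIs (counted RNA molecules) were summed over the rods of each library, and each interval given is a 95% exact one that covers counting error only. At P19 the WT rods held 18 Gnb2 UMIs and the KO rods 238, or 13.6 (8.05 to 21.5) and 167.7 (147.0 to 190.4) UMI CPM (UMIs of the gene in 1000000 UMIs of the rods), a 12.3-fold difference (7.64 to 21.2). At P25 they held 17 and 589 UMIs, or 17.2 and 199.0 UMI CPM, 11.6-fold apart (log2 ratio 3.53, 2.84 to 4.32). At P30 they held 57 and 777 UMIs, or 32.2 and 329.9 UMI CPM, 10.2-fold apart (7.82 to 13.6). By cluster every KO level stood above every WT level and the intervals of the 3 folds overlapped, whereas by marker UMIs the ratio at P30 was well above that at P25. As each genotype had 1 library per age, there was no replicate check, and these values include those that chose the gene. Adipor1, the targeted gene, stood in the same WT and KO rods at 547.8 and 81.0 UMI CPM at P19, 502.0 and 117.6 at P25, and 723.6 and 113.4 at P30.

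The rod values chose Gnb2, so its rank among genes in the same rods is a description and nothing is read from it. Gnb2 ranked 2 by log2 ratio among 2753 genes with at least 200 UMIs in the rods at P19. The haemoglobin gene Hbb-bs ranked 1 with a log2 ratio of 4.78 and Cebpd 3 with 3.55, beside 3.59 for Gnb2 on the same scale with a prior count of 0.5. Gnb2 ranked 13 of 3924 genes at P25, where the Y-linked genes Eif2s3y and Ddx3y led, so the KO and WT pools of that age differed in the sex of their mice, and 13 of 3187 genes at P30. By cluster the log2 ratios of Gnb2 were 3.63, 3.53 and 3.36 at P19, P25 and P30. Of the cells taken by marker UMIs, 75.4% to 91.5% lay in rod clusters, and 32 to 68 per library lay in cone clusters and 15 to 35 in amacrine clusters, where Gnb2 was abundant in both genotypes.

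WT and KO rods mostly formed separate clusters. At P19 and P25, 1 cluster held 1041 and 1783 KO rods beside 60 and 38 WT rods, and another held 905 and 735 WT rods beside 90 and 104 KO rods. The KO rods in the mainly WT cluster had 98.3 and 105.0 Gnb2 UMI CPM at P19 and P25, from 12 and 16 UMIs, against 9.02 and 8.63 in the WT rods of that cluster. The WT rods in the mainly KO cluster had 68.0 and 197.2 UMI CPM, from 5 and 9 UMIs, against 172.1 and 204.2 in its KO rods. At P30 the mainly WT cluster gave 30.1 in WT and 141.1 in KO rods, the latter from 11 UMIs. These are the rods that chose Gnb2, so nothing is read from the split.

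The Gnb2 UMIs of KO rods came from many cells. A Gnb2 UMI was found in 1.62% of WT rods and 16.8% of KO rods at P19, in 1.66% and 22.7% at P25 and in 3.50% and 29.8% at P30, at rod medians of 1019 to 1204 UMIs. An equal Gnb2 share in every rod would have given 18.4%, 24.3% and 32.5% in these KO libraries, each a little above the value found. With so few UMIs per rod, this percentage follows mostly from the mean level. It cannot tell a rise in every rod from a rise in a part of them. After each rod was thinned to 500 UMIs, with no rod left out, the shares were 0.910% (0.417 to 1.72) and 7.34% (lower bound 5.89) at P19, 1.15% (0.527 to 2.17) and 9.54% (8.28 to 10.9) at P25, and 1.79% (1.15 to 2.65) and 15.2% (13.6 to 16.9) at P30. No retinal class could be assumed to lack Gnb2, so free RNA could not be gauged from Gnb2 in another class. Müller glia markers, which rods lack, summed in WT and KO rods to 252.0 and 336.0 UMI CPM at P19, 247.5 and 614.6 at P25, and 892.6 and 516.3 at P30. Those of amacrine cells stood at 152.4 and 167.7, 89.9 and 80.4, and 172.4 and 57.7. The Müller glia markers were thus higher in KO than in WT rods at P19 and P25 and lower at P30. Red blood cell markers went from 33.2 to 687.6 UMI CPM at P19, from 51.5 to 13.9 at P25 and from 256.7 to 1984 at P30, higher in KO rods at P19 and P30 and lower at P25. Lens markers stood at 744.7 UMI CPM in WT rods and 5.64 in KO rods at P19, and at 3.03 or less in both genotypes at P25 and P30. The part of any of these in the Gnb2 values was not tested.

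**Figure D3:**
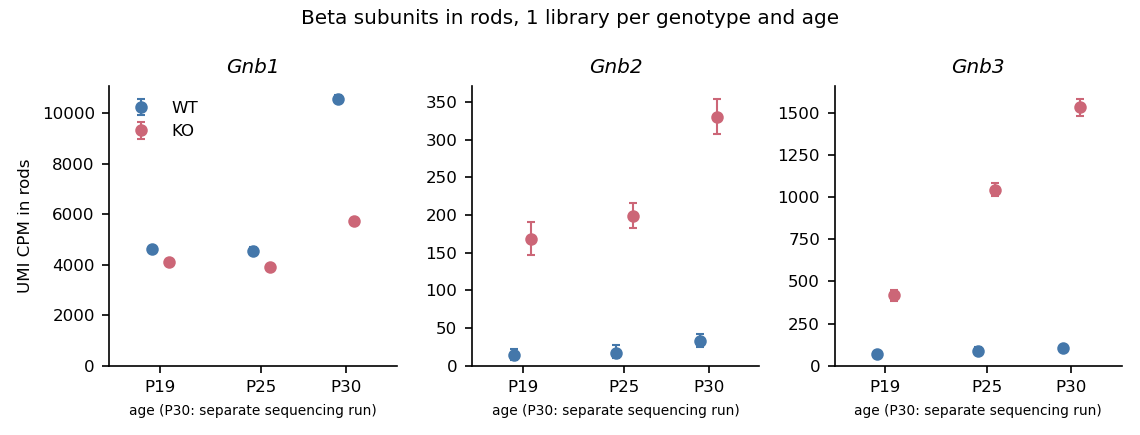
UMI CPM in rods of Gnb1, Gnb2 and Gnb3 at P19, P25 and P30, each on its own linear axis from 0, with WT in blue, KO in red, 1 library per point and bars of 95% Poisson intervals, and P30 from a separate sequencing run. Gnb2 (13.6 to 32.2 in WT, 167.7 to 329.9 in KO) and Gnb3 (70.9 to 102.3 in WT, 417.1 to 1535 in KO) stand higher in KO rods at every age, and Gnb1 stands lower.

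The other beta subunits in rods set the scale of Gnb2. Gnb1, the rod beta subunit, had 4610 and 4112 UMI CPM in WT and KO rods at P19, 4557 and 3917 at P25, and 10585 and 5737 at P30. Gnb2 made up 0.289%, 0.368% and 0.301% of the Gnb1 to Gnb4 UMIs in WT rods and 3.57%, 3.85% and 4.34% in KO rods. Gnb3 made up 1.51%, 1.91% and 0.955% in WT and 8.88%, 20.3% and 20.2% in KO rods. The share of Gnb2 was thus of like size at the 3 ages in the KO, while that of Gnb3 was larger at P25 and P30 than at P19. All 4 genes together summed to 4695 and 4699 UMI CPM at P19, 4663 and 5162 at P25, and 10719 and 7603 at P30. Gnb3 was also found in classes not known for it, such as amacrine cells at P30 (20.4 in WT, 113.6 in KO) and Müller glia at P25 (14.6 and 97.8), which gives the size of its signal outside its own cells. Gnb4 gave 0 or 1 UMI in the rods of each WT library and 1 to 3 in those of each KO library.

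Of the other members, Gng5 and Gnai2 had enough UMIs in rods to compare. Gng5 stood at 94.3 and 147.2 UMI CPM in WT and KO rods at P19 (1.56-fold, 1.24 to 1.96), 79.8 and 141.9 at P25 (1.78-fold, 1.40 to 2.29) and 97.8 and 87.5 at P30 (0.894-fold, 0.727 to 1.10). It was higher in KO rods at the earlier ages, and the interval at P30 holds equal levels. Gnai2 stood at 14.3 and 12.7 UMI CPM at P19, 13.1 and 28.0 at P25, and 18.1 and 7.64 at P30, with no steady direction. Gng10 gave 2 to 12 UMIs and Gng12 0 to 8 UMIs in the rods of any library. Among genes with at least 20 UMIs in both groups together, those at least 1.5-fold higher in KO rods were 2 of 3 members at P19, 3 of 3 at P25 and 1 of 3 at P30, against 13.2%, 13.9% and 10.4% of all such genes. At P30 Gnai2 was at least 1.5-fold lower, as were 11.5% of genes, against 9.58% at P19 and 11.2% at P25, where no member was. As rod values chose Gnb2, nothing is read from these counts.

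Outside rods, the Gnb2 levels of WT and KO cells lay within 1.62-fold of each other in the 4 other classes compared at every age. Müller glia had 315.5 and 343.9 Gnb2 UMI CPM in WT and KO at P19, 301.8 and 318.9 at P25, and 378.8 and 405.7 at P30, folds of 1.09, 1.06 and 1.07. Amacrine cells had 275.7 and 326.2, 252.5 and 250.8, and 330.3 and 351.7, folds of 1.18, 0.993 and 1.06. Cones had 139.2 and 152.4, 133.4 and 146.7, and 179.1 and 279.1, folds of 1.09, 1.10 and 1.56 (1.08 to 2.27 at P30). Among the 5 classes with 50 or more cells in every library, rods and bipolar cells were those in which the counting interval of the fold lay above 1 at all 3 ages, and in bipolar cells it was 1.30 (1.11 to 1.52), 1.31 (1.11 to 1.55) and 1.62 (1.18 to 2.23). At P19, endothelial cells (457.9 and 454.2) and RPE cells (291.1 and 296.7) had like levels in both genotypes. Whether the fold in rods exceeds that of other classes was not tested, as there was 1 library per genotype and age.

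**Figure D4:**
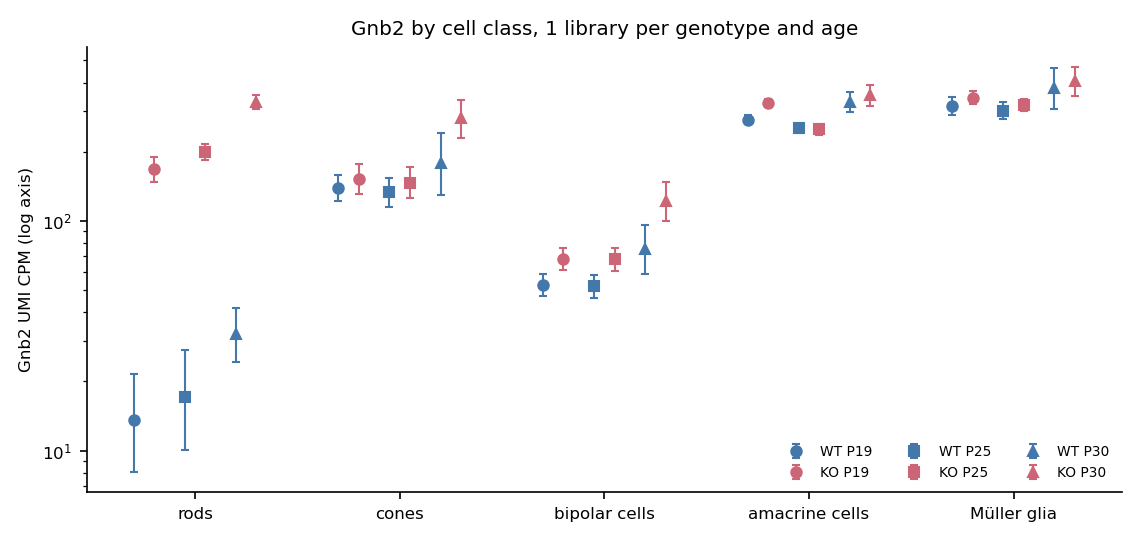
Gnb2 UMI CPM (log axis) in 5 cell classes at P19 (circles), P25 (squares) and P30 (triangles), WT in blue and KO in red, 1 library per point, with bars of 95% Poisson intervals. WT rods lie at 13.6 to 32.2 and KO rods at 167.7 to 329.9, near the levels of cones (133.4 to 279.1), while WT and KO points of Müller glia lie side by side.

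Microglia or macrophages, pericytes and astrocytes had fewer than 50 cells in every library and were left out of the class medians. Over the libraries, taking those with 50 or more cells of a class, the median level of Gnb2 was highest in endothelial cells (454 UMI CPM). It was 331 in Müller glia (301.8 to 405.7), 306 in the 1 library with enough horizontal cells, 301 in ganglion (259.2 to 351.5) and amacrine cells (250.8 to 351.7) and 294 in RPE cells, ranges that overlapped. Cones (150) and bipolar cells (68.3) were lower. Rods differed by genotype, with WT rods (13.6 to 32.2) below the bipolar cells and KO rods (167.7 to 329.9) above the cones of their own library. Most Gnb2 UMIs lay outside rods in every library. Rods held 0.335% of the Gnb2 UMIs of the WT library and 3.96% of those of the KO library at P19, 0.415% and 12.4% at P25, and 6.49% and 42.3% at P30. Rods were 18.2% and 21.6% of cells at P19, 17.9% and 35.0% at P25, and 52.5% and 54.6% at P30, so at P30 the shares of rods were alike. Over all cells of a library, Gnb2 stood at 169.8 UMI CPM in WT and 295.9 in KO at P30, a fold of 1.74 (1.61 to 1.89), beside 2.18 in the bulk retina of that age. At P19 and P25 that fold was 1.22 and 1.17. For Gng5 the 2 data types differed more, with 1.67 (1.49 to 1.89) over all cells at P30 and 1.11 in bulk retina. Over all cells at P30 the folds of Gnb4, Gng10, Gng12 and Gnai2 were 1.20, 0.989, 1.34 and 1.16. In bulk retina they were 0.874, 1.02, 1.48 and 1.21. The cause of these differences was not tested.

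Among the same classes, Gnb4, Gng12 and Gnai2, like Gnb2, had their highest median level in endothelial cells, and Gng5 and Gng10 in Müller glia. The endothelial medians came from 3 libraries, with P30 absent, and those of Müller glia from 6. Gnb4 was highest in endothelial cells (median 189 UMI CPM), followed by amacrine cells (26.1). Gng5 was highest in Müller glia (824), endothelial cells (710) and RPE cells (553) and stood at 96.1 in rods. Gng10 was highest in Müller glia (117) and RPE cells (88.1), and Gng12 in endothelial cells (98.3), RPE cells (55.6), the 1 library of horizontal cells (35.7) and Müller glia (33.4). Gnai2 was highest in endothelial cells (1322) and Müller glia (1293), with 13.7 in rods and 8.9 in cones. Within the P19 libraries Gnai2 was nearly level in the first 2 classes, at 1322 and 1299 in WT and 1292 and 1287 in KO. In Müller glia Gng5 was higher in the KO at each age, with 611.9 and 895.5 UMI CPM at P19 (1.46-fold, 1.35 to 1.58), 752.3 and 923.2 at P25 (1.23-fold, 1.15 to 1.31) and 560.3 and 899.6 at P30 (1.61-fold, 1.33 to 1.95). Gnai2 in Müller glia was alike in WT and KO at each age, with 1299 and 1287, 1434 and 1430, and 619.5 and 608.6 UMI CPM.

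The other genes of G protein signalling were counted in the bulk retina by list, each count to be read beside the 16.2% and 14.7% of all genes that rose and fell. Of 21 other heterotrimeric subunits, 3 rose and 5 fell (median log2 fold change 0.009). Gna14, an alpha subunit of the Gq family, rose from 2.28 CPM in WT to 10.6 in KO (log2 fold change 2.22, adjusted p = 3.5e-09), and its KO effect was lower in RPE than in retina (interaction -2.09, 3.9e-04). Gnb5, the beta subunit bound to RGS9, fell by 0.50 (4.3e-06), and Gnaz, an inhibitory alpha subunit, fell by 0.48 (8.4e-05). In rods Gna14 gave at most 1 UMI in any library.

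Of 25 tested RGS proteins and exchange modulators (28 listed), which set how long an alpha subunit stays active, 6 rose and 7 fell (median log2 fold change -0.025). Rgs9bp, the membrane anchor of RGS9 in photoreceptors, fell from 1177 CPM in WT to 538.6 in KO (log2 fold change -1.13, adjusted p = 3.3e-09), while Rgs12 rose from 13.2 to 27.0 CPM (1.03, 1.0e-07) and the scaffold Akap12 from 58.1 to 98.6 CPM (0.76, 4.1e-07). Of 18 listed chaperone, binding and lipid-processing genes, not all particular to the beta-gamma pair, 0 rose and 10 fell (median -0.12). Pdc, the phosducin that sequesters transducin beta-gamma, fell from 2088 CPM in WT to 1029 in KO (log2 fold change -1.02, adjusted p = 1.6e-05), Unc119, a carrier of the lipid tail of transducin alpha, fell by 0.56 (4.3e-06) and the chaperonin subunit Cct5 fell by 0.28 (2.5e-04). In rods the log2 ratios of Pdc were -0.10, -0.60 and -0.84 at P19, P25 and P30 and those of Rgs9bp -0.35, -0.61 and -1.06.

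Of 28 effectors of G proteins, 12 rose and 1 fell in retina (median log2 fold change 0.13). The adenylyl cyclase Adcy6 was the 1 that fell (log2 fold change -0.65, adjusted p = 1.3e-07). Plcb4, a phospholipase C that Gq activates, rose from 163.9 CPM in WT to 209.5 in KO (0.35, 2.9e-05), and its log2 ratio in rods was 0.48, 0.86 and 1.84 at P19, P25 and P30. Prex1, an exchange factor that beta-gamma activates, rose by 0.59 on the log2 scale (3.9e-05). Of 10 genes that carry or shut off the visual signal, 0 rose and 7 fell (median -0.47), among them Pde6b (log2 fold change -0.94) and Pde6g (-0.93). In RPE, 2.84% of all genes rose and 3.89% fell. There these lists gave 0 up and 3 down of 20 other subunits, 2 up of 26 RGS proteins and modulators and 1 up of 28 effectors. Of the 18 chaperone, binding and lipid-processing genes and the 10 visual genes, 0 passed in either direction.

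The genes most like Gnb2 over the 16 bulk libraries, by Pearson correlation of log2 CPM among 11584 genes with a mean of at least 5 CPM in each tissue, were Tnfrsf1a (r = 0.992), Pbxip1 (0.991), B2m (0.990), Msn (0.990) and Pcolce (0.990). These libraries share 2 tissues and 2 genotypes, which many genes follow. Over 40 sums of a cell class in a library, among 6943 genes with at least 200 UMIs in rods, they were Capzb (r = 0.795), Faap20 (0.770), Actg1 (0.745), Brk1 (0.737) and D8Ertd738e (0.723). The lists had no gene in common, and the sums of 1 library share its depth and its free RNA.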

How the data were processed

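Bulk tables held raw read counts per Ensembl gene that the authors deposited for 16 libraries (4 per genotype and tissue), with no normalisation. The aligner, the counter and its use of strand were not given in the sources used here, and the labels name mm10 and edgeR 3.20.9. The authors made the single-cell values with Cell Ranger 2.1 and Seurat 3.2.2 and deposited them as natural log values, scaled to 10000 per cell and log-transformed in 2 rounds. Undoing both rounds gave whole UMI counts (within 0.01) for 99.999985% of values, which replaced the counts the design had assumed. The members and gene lists were chosen with earlier results of these data known.

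Each bulk comparison used edgeR 4.0.16's quasi-likelihood test with TMM scaling, filterByExpr and Benjamini-Hochberg adjustment over all genes tested. A gene was said to rise, fall or pass at an adjusted p below 0.05, and every adjusted p in the text comes from this test unless another tool is named. CPM in the text divides counts by the scaled library total. Levels between genes were divided by exon length. Of 53801 identifiers, 53620 matched GENCODE M21. Replicates with the same number came from different mice, but their deviations correlated across genotypes in every pair (retina 0.13 to 0.33, RPE 0.34 to 0.73), so a replicate block was also fitted. It changed no call of a member.

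Cells were clustered with scanpy 1.11.5 (2000 variable genes, 30 components, 15 neighbours, Leiden resolution 1), clusters were named from marker lists and may differ from the study's own, and no doublet caller was run. UMIs were summed per library and class, with classes of at least 50 cells compared. Depths were 20133143 to 38409496 counts per bulk library and a median of 1349 to 4357 UMIs per cell by library. Intervals are 95% exact Poisson, binomial or conditional binomial intervals and cover counting error only. Named genes were all members and transducin subunits, Adipor1, the 3 genes with the smallest p in bulk retina from each other list, the 5 genes most like Gnb2 in each data type and genes overlapping a member. The 3 leading genes of the rod rank were named after their values were seen. A gene that the rule covers is not reported here. Alternatives were DESeq2 1.42.0, limma 3.58.1 (voom), other scalings and filters, the block, 1 fit of all libraries, and each replicate left out, besides which the removal of WT RPE replicates 2 and 3 and of 1 small rod cluster were chosen after seeing the data. In simulated counts at these depths, 80% of 1.5-fold and 98% of 2-fold changes were recovered in retina (19124 genes), and 8% and 40% in RPE (18732 genes). Genome windows and promoters come from RefSeq on GRCm38.p6.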

Additional observations from a re-analysis of the deposited data

Results flagged for a closer look

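The KO effect on Gnb2 differed between the tissues, being lower in RPE than in retina by 0.80 on the log2 scale (interaction -0.80, adjusted p = 1.1e-04 by edgeR's quasi-likelihood test). Gnb2 was higher in all 4 KO libraries than in all 4 WT libraries of both tissues. Among 48 groups of 4 libraries, 3 held a library far from the other 3, where chance gives about 1 in 20 groups. Gnai2 in WT RPE replicate 3 stood at 146.7 CPM, below the 194.7 to 202.0 CPM of the other WT RPE libraries. Gngt1 in KO retina replicate 1 stood at 811.4 CPM, above the others of its group. Gngt2 in KO retina replicate 4 stood at 69.5 CPM beside 67.8 to 68.0 CPM in the rest of its group, a small difference among close values.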

How the results depend on the processing

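For the 6 genes, 429 of 438 alternative values kept their side of the threshold, 16 of them with the opposite sign while neither value passed, 8 newly passed, 1 no longer passed and 0 reversed while passing. In retina, 3 genes passed with each replicate left out in turn (3 to 3), 3 with the replicate block and 1 (Gnb2) where a fold of 1.5 was also asked. With library totals alone, which move the median log2 fold change of all genes to 0.11 (5855 rose and 1485 fell, against 3144 and 2846), 4 passed, Gng5 being the added gene. In RPE, 0 passed with each replicate left out (0 to 0) or with the block, 1 (Gnb2) with library totals alone, 1 (Gnb2) with DESeq2 and 2 (Gnb2 and Gng5) with all 16 libraries in 1 fit. Over all genes, library totals alone turned the interaction split from 656 higher and 1207 lower to 358 and 2155 (median -0.18). The interaction gave 1 to 2 genes with each replicate left out, the second being Gnai2 without WT RPE replicate 3, and 3 without WT RPE replicates 2 and 3. It gave 1 with the replicate block. In WT, each retina library correlated best with the RPE library of its own number (0.14 to 0.24). The numbers did not pair KO retina with KO RPE in this way (correlations of -0.07 to 0.31). Without WT RPE replicates 2 and 3, which held the most rod RNA, the interaction of Gnb1 turned from -0.06 to 0.84. WT RPE against WT retina gave 5 genes with each replicate left out (5 to 5) and 5 with the block. The block changed no other call of the 6 genes. For rods, taking cells by marker UMIs moved the log2 ratio of Gnb2 to 1.30 at P19, 0.82 at P25 and 2.47 at P30, and the other settings gave 3.58 to 3.75, 3.32 to 3.57 and 3.36 to 3.68. The causes were not tested. Depth limits Gnb4, Gng10 and Gng12 in rods (at most 12 UMIs per library), so modest differences there were not detectable.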

Other observations

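Gnb4 and Gng5 were both more abundant in KO than in WT cones at P19, where Gnb4 gave 11 UMIs in WT and 25 in KO cones (6.71 and 21.5 UMI CPM, 3.21-fold, 95% counting interval 1.52 to 7.22) and Gng5 gave 60 and 85 UMIs (36.6 and 73.2 UMI CPM, 2.00-fold, 1.42 to 2.83). At P25 the folds in cones were 0.811 (0.266 to 2.29) and 1.16 (0.817 to 1.66). At P30 Gnb4 gave 0 and 2 UMIs and the fold of Gng5 was 1.24 (0.529 to 3.13). The intervals at P25 and that of Gng5 at P30 hold equal levels. The P19 cones were picked after the values of all classes and ages were seen, with 1 library per genotype.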
